A study of Mus musculus with 33 samples.

Results

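Transcripts and ribosome footprints of 9 genes of microglia were followed through brain tissue of mice with and without n-Tr20, an arginine tRNA of neurons that reads the AGA codon. The genes were the 3 C1q chains C1qa, C1qb and C1qc, the receptors Cx3cr1, Csf1r, P2ry12 and Trem2, and the microglial proteins Tmem119 and Aif1. They were picked by symbol from the 54752 genes of the forebrain and hippocampus RNA tables, and the same gene identifiers were read in the 22523 genes of the footprint table. All 9 passed the filter on low counts in every comparison.

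Forebrain RNA was sequenced from 5 groups of 4 samples, from mice 8 weeks old, and 1 of these samples was sequenced again in a later batch, giving 21 libraries. Each number in a group is taken as 1 mouse. The groups were B6J n-Tr20 -/- (B6J knockout), B6J, B6J Tg(n-Tr20) (B6J transgenic), B6N n-Tr20 -/- (B6N knockout) and B6N. B6N is the C57BL/6NJ strain with wild-type n-Tr20, and B6J is C57BL/6J, whose own n-Tr20 is a hypomorphic mutant. The transgene is the B6N form of n-Tr20 and is carried on top of that mutant; its promoter is not given in the sources used here. Hippocampus came from B6N knockout and B6N mice of the same age, with 3 RNA libraries and 3 footprint libraries per genotype. The column names of the hippocampus RNA tables call the strain B6JN where the labels say C57BL/6NJ, so the background of those mice is less certain. Whether a hippocampus RNA library and a footprint library of the same number came from the same mouse is not stated. For knockout 1 the sex genes, given below, differ between the assays.

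Microglia are the resident macrophages of the brain and depend on signalling through the receptor of colony-stimulating factor, Csf1r. They are the main source of brain C1q, the protein that recognises targets for the classical complement pathway and that binds synapses during their removal. One molecule of C1q is assembled from chains A, B and C, and their genes lie side by side. In resting tissue microglia also carry P2ry12, which senses nucleotides released by other cells, Cx3cr1, which binds the neuronal ligand fractalkine, and Tmem119, a membrane protein used to tell microglia from other macrophages.

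On mouse build GRCm38 (RefSeq annotation) the C1q genes stand next to each other on chromosome 4, C1qb at chr4:136880126-136886200, C1qc at chr4:136889801-136892936 and C1qa at chr4:136895916-136898844. Cx3cr1 is at chr9:120048683-120068296, P2ry12 at chr3:59216271-59262985, Tmem119 at chr5:113793729-113800396, Aif1 at chr17:35170986-35176083 and Trem2 at chr17:48346401-48352276. P2ry12 lies within the span of Med12l, Cx3cr1 overlaps Gm33858, and Csf1r overlaps Mir6983 and Gm52352. The hippocampus RNA libraries do not mark the strand, so reads there cannot be told apart where exons of these genes overlap. Only whole gene spans were compared, and overlap of exons was not checked. RefSeq promoter windows of 300 bases, from 250 before to 50 after the start, were at hand for 6 of the 9 genes. The windows of C1qb, C1qc and Cx3cr1 are shown because these are the genes with lower footprints in knockout hippocampus for which a window was at hand. Each reads 5′ to 3′ on the gene's own strand, and capitals mark GAGGAA or its reverse complement TTCCTC, the core letters of sites bound by PU.1, a transcription factor that macrophages and microglia need.
C1qb (chr4:136886151-136886450, minus strand): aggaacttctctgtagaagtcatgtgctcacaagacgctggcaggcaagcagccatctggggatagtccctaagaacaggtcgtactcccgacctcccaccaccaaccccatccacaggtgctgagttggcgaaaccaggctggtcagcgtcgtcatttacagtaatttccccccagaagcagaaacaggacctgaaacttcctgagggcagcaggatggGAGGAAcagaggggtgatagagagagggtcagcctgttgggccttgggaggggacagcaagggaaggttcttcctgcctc
C1qc (chr4:136892865-136893164, minus strand): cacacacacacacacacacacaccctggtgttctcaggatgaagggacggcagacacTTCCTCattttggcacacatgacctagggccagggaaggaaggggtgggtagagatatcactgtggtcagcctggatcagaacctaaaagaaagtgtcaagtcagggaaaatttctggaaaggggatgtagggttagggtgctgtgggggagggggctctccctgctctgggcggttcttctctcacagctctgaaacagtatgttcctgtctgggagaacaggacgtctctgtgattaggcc
Cx3cr1 (chr9:120068247-120068546, minus strand): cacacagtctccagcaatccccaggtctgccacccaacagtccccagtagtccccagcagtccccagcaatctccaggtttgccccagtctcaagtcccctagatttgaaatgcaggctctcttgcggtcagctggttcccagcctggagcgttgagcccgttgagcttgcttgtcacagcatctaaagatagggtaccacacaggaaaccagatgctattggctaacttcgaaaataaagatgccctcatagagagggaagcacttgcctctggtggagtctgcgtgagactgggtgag
GAGGAA stood at position -30 from the start in C1qb, at -193 in C1qc, at -7 in Aif1 and at -40 in Trem2, and it was absent from the windows of Cx3cr1 and P2ry12. On both strands together, 28.3% of the 32851 promoter windows of the table held these letters, so a match is common, and it describes the letters only. The longer GAGGAAGT, or its reverse complement, was in 1 of the 6 windows, that of C1qc, and in 3.2% of all windows.

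Total counts ran from 14.7 to 38.5 M (1 M is 1000000 counts) per library in forebrain, from 35.8 to 60.4 M in hippocampus RNA and from 7.6 to 17.9 M in footprints. Levels are CPM, counts scaled to a library total of 1000000, after TMM scaling unless a level per length is named. Siglech, another gene of resting microglia, was present throughout, at 8.42 to 10.9 CPM over the 21 forebrain libraries. Markers of blood leukocytes summed to 10.8 to 16.4 CPM in the same libraries, among them the T cell gene Cd3e at 0 to 0.286 CPM and the monocyte gene Ccr2 at 1.1 to 2.78 CPM, and 6 of the 12 passed the filter on low counts. Red cell markers summed to 112 to 224 CPM. Macrophages of the brain's borders also make C1q and Csf1r, and their markers summed to 32.3 to 42.5 CPM in forebrain, against 195 to 240 CPM for the 9 genes. In bulk tissue, fewer cells of a type and less RNA per cell cannot be told apart. By Xist, 3 of the 4 B6J knockout libraries were female and none of the other forebrain libraries was, and of the 6 hippocampus RNA libraries knockout library 1 was female, so sex moves with these groups.

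Per transcript length, P2ry12 was the most abundant of the 9 in B6N forebrain, and Tmem119, Aif1 and Trem2 were the least. P2ry12 stood at 12.5 ± 0.62 TPM (SD, n = 4; TPM scales each library to 1000000 after dividing by transcript length), C1qa at 11.2 ± 0.49 TPM, C1qc at 9.90 ± 1.03 TPM, C1qb at 9.84 ± 0.639 TPM and Csf1r at 9.67 ± 0.364 TPM. Cx3cr1 followed at 3.88 ± 0.347 TPM, Tmem119 at 3.16 ± 0.108 TPM, Aif1 at 3.01 ± 0.203 TPM and Trem2 at 2.96 ± 0.371 TPM. C1qc, C1qb and Csf1r stood within 1 SD of each other, as did Tmem119, Aif1 and Trem2, so their order is not set. Among the 25151 genes tested, the first 5 lay between the 78.3 and 83.1 percentile of TPM and the last 4 between the 55.5 and 60.5 percentile.

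In hippocampus RNA the C1q chains led. Per kilobase of transcript, B6N hippocampus held 31.4 ± 2.28 CPM of C1qa, 29.6 ± 0.371 CPM of C1qb and 26.6 ± 2.08 CPM of C1qc (SD, n = 3). Csf1r was level with C1qc at 26.5 ± 1.43 CPM, ahead of P2ry12 at 18.7 ± 0.794 CPM and Cx3cr1 at 14 ± 1.16 CPM. Tmem119 at 9.46 ± 1.13 CPM, Aif1 at 6.34 ± 0.112 CPM and Trem2 at 5.58 ± 0.412 CPM came last. The forebrain libraries held total RNA depleted of ribosomal RNA and the hippocampus libraries poly(A) RNA, so the tissues were not tested against each other. Their levels per length also differ in kind. Forebrain levels are TPM, and hippocampus levels are CPM over annotated transcript lengths weighted by B6N forebrain TPM. The order of the genes therefore cannot be compared between the tissues.

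The 3 C1q chains kept near-equal shares of their summed level in each library. In forebrain TPM, C1qa took 33.7% to 39.6% of the sum over 21 libraries (median 36.6%), C1qb 30.3% to 34.8% (median 31.8%) and C1qc 27.0% to 35.2% (median 31.1%). In footprints the mean shares were 34.3% ± 0.862 for C1qa, 34.6% ± 2.09 for C1qb and 31.2% ± 2.94 for C1qc in B6N knockout, against 34.9% ± 1.29, 35.0% ± 1.32 and 30.0% ± 1.05 in B6N (SD, n = 3 each). These shares overlapped between genotypes for each chain.

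Footprints of the C1q chains and of Cx3cr1 fell in the hippocampus of B6N knockout mice. Of the 9 genes, 4 were lower and none was higher at an adjusted p under 0.05 (edgeR's quasi-likelihood test, Benjamini-Hochberg over 13227 genes). The background was 5.35% of all genes in either direction and 3.16% lower. Footprints are the RNA stretches that ribosomes cover during translation, and their count follows both the amount of a transcript and how densely it is read.

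C1qa, the A chain, had 39.1, 47.1 and 49.5 CPM in the footprints of B6N knockout 1 to 3, against 56.7, 70.4 and 71.6 CPM in those of B6N 1 to 3. C1qb, the B chain, had 37.8, 48.0 and 51.4 CPM in knockout and 59.2, 65.3 and 74.8 CPM in B6N. C1qc, the C chain, had 39.9, 43.0 and 39.8 CPM in knockout and 47.3, 58.4 and 66.0 CPM in B6N. All knockout libraries lay below all B6N libraries for each chain, and B6N 1 was the B6N library nearest to the knockouts. Knockout footprints of C1qa were 0.679-fold those of B6N (log2 fold change -0.56 ± 0.12 SE, edgeR adjusted p = 0.0235). C1qb was at 0.684-fold (-0.55 ± 0.13 SE, adjusted p = 0.0296) and C1qc at 0.713-fold (-0.49 ± 0.13 SE, adjusted p = 0.0389) in the same edgeR fit. The chains differed from each other in fold change by less than their standard errors.

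Cx3cr1, the fractalkine receptor, had 31.3, 29.7 and 26.9 CPM in knockout footprints and 36.8, 46.3 and 50 CPM in B6N footprints. The groups did not overlap. Its knockout level was 0.663-fold that of B6N (log2 fold change -0.59 ± 0.13 SE, edgeR adjusted p = 0.0246). Tmem119 also had every knockout library below every B6N library, at 17.6, 16.2 and 16.3 CPM against 18.2, 20 and 22.7 CPM, but its difference of -0.28 ± 0.15 missed the threshold (edgeR adjusted p = 0.308). Of all genes, 13.7% had every knockout footprint library below every B6N one.

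Csf1r, the growth factor receptor, had 140, 141 and 121 CPM in knockout footprints and 137, 150 and 159 CPM in B6N footprints. P2ry12 had 36.8, 41.8 and 48.2 CPM in knockout and 46.7, 49.5 and 49.5 CPM in B6N. Trem2, a lipid-sensing receptor, had 12.3, 15.6 and 13.2 CPM in knockout and 16.2, 18.5 and 14 CPM in B6N. The groups overlapped for all 3, and their log2 differences were -0.15 ± 0.09, -0.21 ± 0.12 and -0.25 ± 0.17. Aif1, which codes for the calcium-binding protein Iba1, had 6.55, 3.81 and 4.44 CPM in knockout and 3.68, 4.99 and 5.33 CPM in B6N, and its difference of 0.11 ± 0.29 was the only positive one. The lowest footprint count of Aif1 in a library was 29, which limits its precision. Over the 9 genes the median log2 difference was -0.28, against 0 for all 13227 genes.

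**Figure D1:**
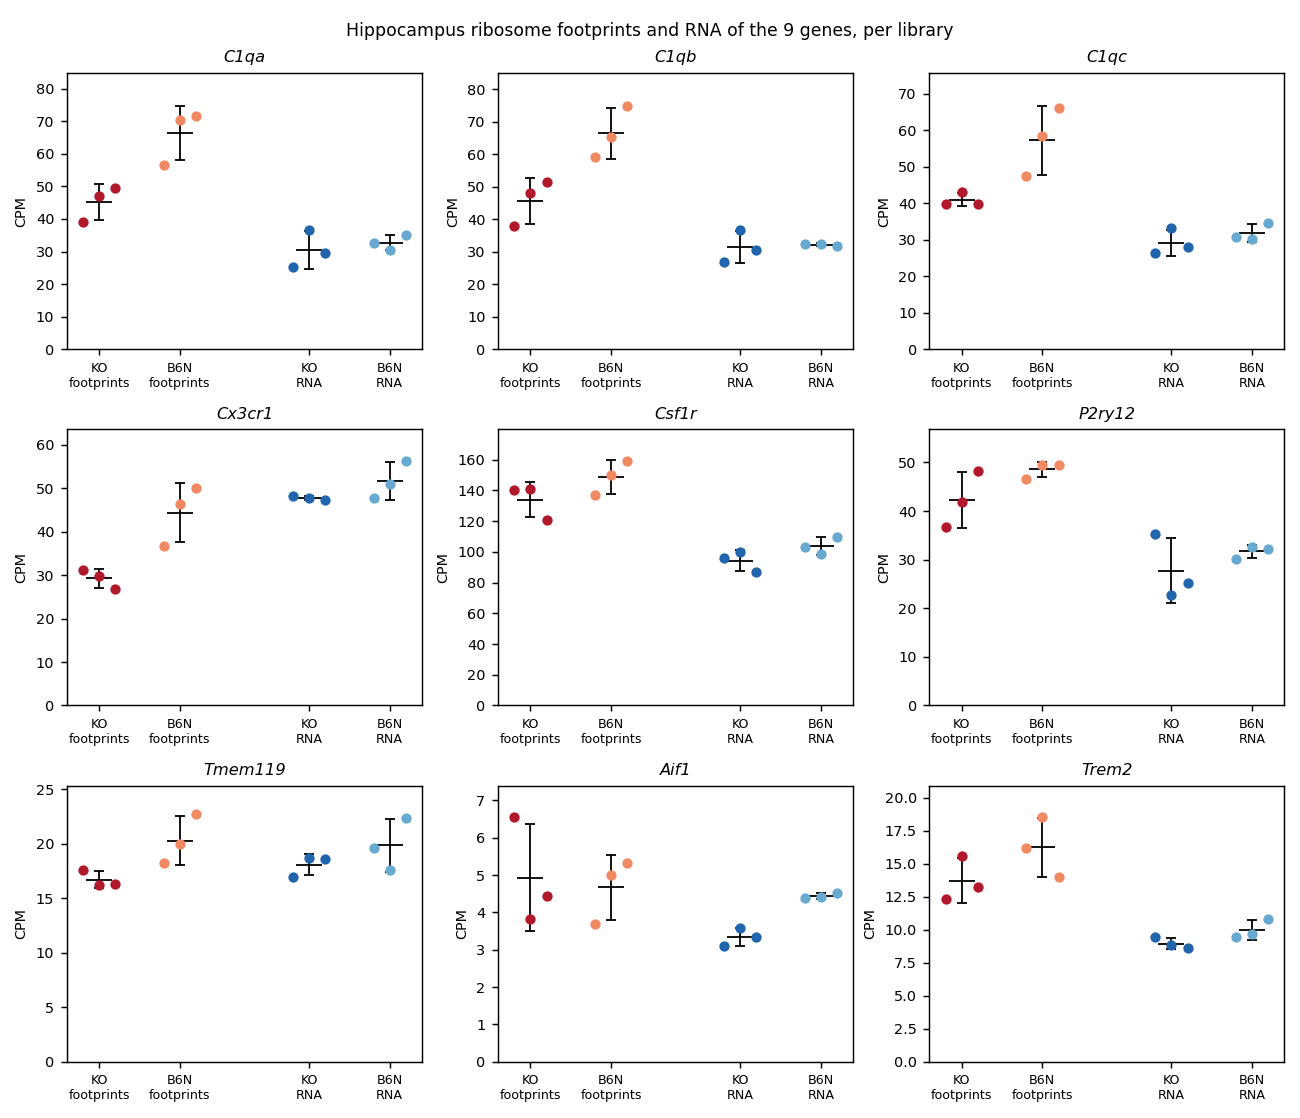
Levels of the 9 genes in hippocampus, in CPM on axes that start at 0, by library (points), with black bars for mean ± SD (n = 3). From left to right stand B6N knockout footprints, B6N footprints, B6N knockout RNA and B6N RNA. C1qa, C1qb, C1qc, Cx3cr1 and Tmem119 had every knockout footprint library below every B6N footprint library.

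These 4 calls rest on 3 libraries a group and shrink when a library is left out. None of the 9 genes passed without B6N 2, without B6N 3 or without knockout 2, 1 passed without knockout 1 (Cx3cr1), 2 passed without knockout 3 (C1qa and C1qb), and 4 passed without B6N 1, while all 4 log2 differences stayed between -0.71 and -0.37. Footprint library 1 of the knockouts also had less of the Y-linked gene Ddx3y than the other 5, at 45.5 CPM against 67 to 107 CPM. Knockout RNA library 1 was female by Xist, and the lowest Ddx3y RNA among the knockouts was 0.336 CPM. The knockout 1 footprints therefore did not come from that 1 female mouse alone.

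In hippocampus RNA none of the 9 genes passed the test, and the C1q chains and Cx3cr1 overlapped between the genotypes. C1qa had 25.1, 36.6 and 29.6 CPM in knockout RNA and 32.6, 30.4 and 35.1 CPM in B6N RNA. C1qb had 26.8, 36.6 and 30.7 CPM in knockout and 32.3, 32.5 and 31.7 CPM in B6N, and C1qc had 26.3, 33.1 and 28.1 CPM in knockout and 30.7, 30.1 and 34.7 CPM in B6N. Knockout library 2 was the highest or second highest of the 6 for each chain, and knockout library 1, the female one, the lowest. Cx3cr1 had 48.3, 47.8 and 47.2 CPM in knockout and 47.8, 50.9 and 56.3 CPM in B6N, which also overlapped. The log2 fold changes were -0.11 for C1qa, -0.04 for C1qb, -0.13 for C1qc and -0.11 ± 0.07 for Cx3cr1.

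Csf1r ran from 86.7 to 100 CPM in knockout RNA and from 98.7 to 110 CPM in B6N RNA, P2ry12 from 22.7 to 35.3 CPM in knockout and from 30.2 to 32.7 CPM in B6N, and Tmem119 from 17 to 18.7 CPM in knockout and from 17.6 to 22.4 CPM in B6N. All 3 overlapped, with log2 differences of -0.14, -0.19 and -0.13. Aif1 had 3.09, 3.57 and 3.34 CPM in knockout RNA and 4.38, 4.40 and 4.53 CPM in B6N RNA. Trem2 had 9.41, 8.83 and 8.58 CPM in knockout and 9.42, 9.65 and 10.8 CPM in B6N. For both genes, every knockout library was below every B6N library, as it was for 7.4% of all genes. Aif1 differed by -0.41 ± 0.13 on the log2 scale (edgeR adjusted p = 0.471), and Trem2 by -0.15 ± 0.10 (adjusted p = 0.745). In all, 0 of the 9 passed by edgeR and 0 by DESeq2, 1 (Aif1) had an unadjusted p under 0.05, as had 7.94% of all genes, and 0.0413% of all 19352 genes were called. All 9 differences were negative, with a median of -0.13, while 50.9% of all genes had a positive one.

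Whether footprints moved more than RNA was tested in 1 model over the 12 hippocampus libraries, as the change of the footprint-to-RNA ratio in knockout against B6N. That change was -0.48 ± 0.19 on the log2 scale for C1qa, -0.54 ± 0.18 for C1qb, -0.39 ± 0.17 for C1qc and -0.50 ± 0.15 for Cx3cr1. Their edgeR adjusted p-values were 0.268, 0.203, 0.308 and 0.154, so the larger difference in footprints was not shown to differ from that in RNA. Unadjusted, these 4 genes had p under 0.05 and the other 5 did not, against 14.8% of all genes. Csf1r and P2ry12 stood at -0.04 each, Trem2 at -0.12, Tmem119 at -0.17 and Aif1 at 0.50 ± 0.31. By edgeR 0 of 15202 genes passed (0%), against 2251 with an unadjusted p under 0.05 and 494 by DESeq2, which called 0 of the 9. Without the footprint library of B6N 1, Cx3cr1 passed at -0.64 (edgeR adjusted p = 0.0273).

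In B6N hippocampus the C1q chains had many footprint counts for their RNA counts. Their footprint-to-RNA ratio was 2.25 for C1qa, 2.29 for C1qb and 2.00 for C1qc, which ranked at the 88.5, 89.1 and 84.9 percentile of 15202 genes. In knockout hippocampus C1qa, C1qb and C1qc ranked at the 74.4, 73.5 and 72.0 percentile, still above the median gene. Cx3cr1 stood at the 34.2 percentile in knockout and at the 49.4 percentile in B6N. Aif1 ranked higher in knockout, at the 75.7 percentile in knockout and the 60.2 percentile in B6N. The ranks of the other 4 lay closer together, with Csf1r at 72.8 in knockout and 75.5 in B6N, P2ry12 at 75.6 in knockout and 78.5 in B6N, Tmem119 at 52.1 in knockout and 58.5 in B6N, and Trem2 at 75.9 in knockout and 81.1 in B6N. The kits and gene tables of both assays differ, so only the rank of a ratio is read here. The ratio sets CPM against CPM with no correction for length, so a rank among genes can also follow how much of a transcript is coding. Markers of other cells also differed between the assays. Choroid plexus markers summed to 6030 to 18400 CPM in footprints and 83.9 to 4150 CPM in RNA. Border macrophage markers summed to 38.9 to 64.7 CPM in footprints and 26.6 to 34.1 CPM in RNA. Oligodendrocyte markers went the other way, at 3400 to 4390 CPM in footprints and 4660 to 7590 CPM in RNA. The parts of length and of tissue make-up in these ranks were not tested.

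**Figure D2:**
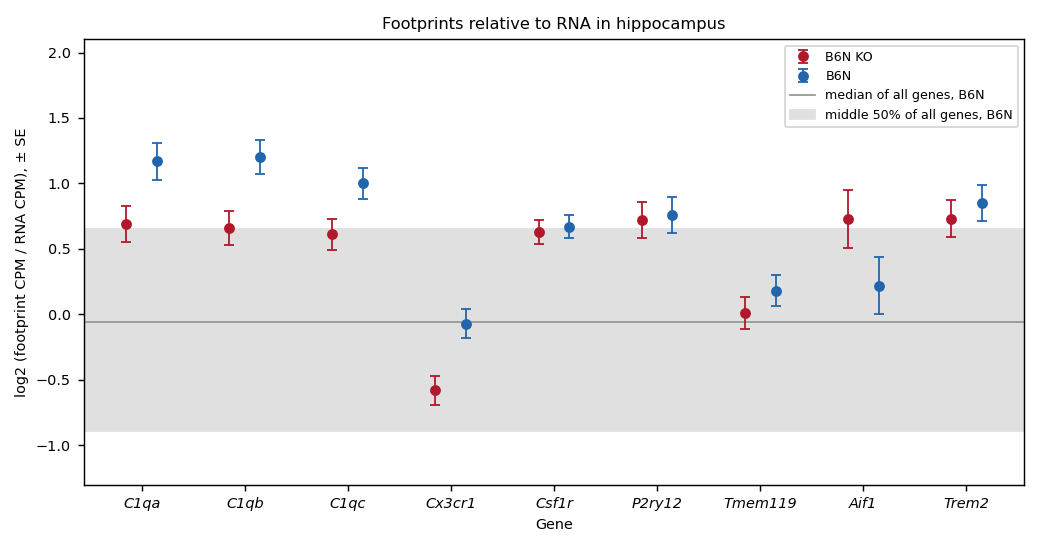
Log2 ratio of footprints to RNA for the 9 genes in B6N knockout (left point of each pair) and B6N (right point) hippocampus, with bars for ± SE of the fitted ratio. The grey band is the middle 50% of 15202 genes in B6N (-0.89 to 0.65) with its median of -0.06 as a line. Above the band in B6N stand the C1q chains, Trem2, P2ry12 and, just over its edge, Csf1r. In knockout these genes stand near its upper edge.

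Other cells and other microglial genes in the same footprints were read from lists. Other genes of resting microglia summed to 722 to 725 CPM in knockout footprints and 812 to 913 CPM in B6N footprints. Of 26 tested, 2 fell, with a median of -0.25. Sall1, a transcription factor of resting microglia, had 5.17, 4.99 and 6.97 CPM in knockout and 9.74, 12.2 and 10.7 CPM in B6N (log2 fold change -0.93 ± 0.22 SE, edgeR adjusted p = 0.0275). Laptm5, a lysosomal membrane protein of blood-lineage cells, differed by -0.63 ± 0.14 (edgeR adjusted p = 0.0264). In hippocampus RNA the differences were -0.33 ± 0.09 for Sall1 (adjusted p = 0.416) and -0.09 ± 0.09 for Laptm5 (adjusted p = 0.83).

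Of the genes that microglia raise on activation, 0 of 15 were called in footprints and 0 had an unadjusted p under 0.05, with a median of -0.01. Markers of border macrophages summed to 39.0 to 64.7 CPM in knockout footprints and 38.9 to 50.2 CPM in B6N, with 0 of 7 called. Astrocyte markers summed to 4830 to 5140 CPM in knockout and 5260 to 6100 CPM in B6N, with 2 of 8 lower (Sox9 and Aldoc). Oligodendrocyte markers summed to 3400 to 4020 CPM in knockout and 3520 to 4390 CPM in B6N, with 3 of 8 lower (Mbp, Mobp and Olig2). Choroid plexus markers summed to 8010 to 18400 CPM in knockout and 6030 to 13200 CPM in B6N, with 0 called. Endothelial and mural markers summed to 332 to 376 CPM in knockout and 187 to 351 CPM in B6N, with 0 called. Neuron markers summed to 8360 to 9280 CPM over all footprint libraries. Slc17a7 alone of them was called, and it was lower in knockout (-0.29 ± 0.07, edgeR adjusted p = 0.0322). Meninges markers summed to 307 to 493 CPM over all footprint libraries, with none called. The part of these cell types in the footprint result was not tested.

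In forebrain RNA, none of the 9 genes passed in B6N knockout against B6N, where 1.91% of 25151 genes were called. The log2 fold changes ran from -0.12 to 0.16 with a median of -0.04, and their 95% intervals lay between -0.33 and 0.31. C1qa had 27.2, 26.8, 27.1 and 23.3 CPM in B6N knockout and 23.8, 24.8, 23.3 and 21.9 CPM in B6N. Knockout libraries 1 to 3 were above every B6N library and knockout 4 was among them, for a difference of 0.15 ± 0.06 (unadjusted p = 0.0234, edgeR adjusted p = 0.29). Cx3cr1 had 29.3, 29.2, 30.4 and 27.3 CPM in B6N knockout and 24.1, 30.5, 24.0 and 25.2 CPM in B6N, for a difference of 0.16 ± 0.07 (edgeR adjusted p = 0.344). The groups overlapped because of B6N library 2. C1qa and Cx3cr1 were the 2 genes of the 9 with an unadjusted p under 0.05, as had 12.7% of all genes, and DESeq2 called 0 of the 9.

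P2ry12 was the single gene of the 9 whose B6N knockout and B6N forebrain libraries did not overlap. It had 22.8, 23.8, 26 and 25.7 CPM in B6N knockout and 26.4, 26.2, 27.2 and 26.1 CPM in B6N. Every knockout library was lower, as for 3.96% of all genes, but knockout 3 stood just under the lowest B6N library. The difference of -0.11 ± 0.06 did not pass (edgeR adjusted p = 0.444). Csf1r, at 71.0 to 77.2 CPM in knockout and 69.0 to 78.6 CPM in B6N, differed by 0.01 ± 0.05. C1qb, C1qc, Tmem119, Aif1 and Trem2 overlapped between these groups too. C1qb ran from 18.8 to 24 CPM in knockout and from 19.3 to 23.5 CPM in B6N, and C1qc from 19 to 24.9 CPM in knockout and from 20.4 to 27.9 CPM in B6N. Trem2 ran from 8.24 to 9.52 CPM in knockout and from 8.66 to 10 CPM in B6N, for the lowest difference of the 9 (-0.12).

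B6J against B6J transgenic compares low with restored n-Tr20 inside 1 strain, and 0 of the 9 genes passed there, of 0.25% called among all genes. Tmem119 had 14.6, 13.1, 18.0 and 15.9 CPM in B6J and 15, 13.9, 11.6 and 11.1 CPM in B6J transgenic. B6J libraries 3 and 4 were above every transgenic library and the other 2 were among them. Its difference of 0.25 ± 0.10 was the largest of the 9 (unadjusted p = 0.0153, edgeR adjusted p = 0.327), and it was the 1 gene of the 9 with an unadjusted p under 0.05, as had 10.3% of all genes. DESeq2 called 0 of the 9. The other 8 genes differed by -0.10 (Aif1) to 0.07 (C1qa).

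B6J against B6N changes the strain and the level of n-Tr20 together, and the parts of each cannot be told apart in it. Here 0 of the 9 passed by edgeR and 0 by DESeq2, against 1.73% of all genes by edgeR. P2ry12 had 22.3, 24.0, 23.0 and 24.7 CPM in B6J, all below the 4 B6N libraries, as for 3.74% of all genes. Its difference of -0.17 ± 0.06 had a 95% interval of -0.29 to -0.05 (unadjusted p = 0.00541, edgeR adjusted p = 0.133), and no other of the 9 had an unadjusted p under 0.05, against 12.8% of all genes. Aif1 at -0.24 had the lowest value, with 2.90, 2.44, 2.42 and 2.70 CPM in B6J and 2.86, 3.53, 3.10 and 2.95 CPM in B6N. With n-Tr20 restored, B6J transgenic against B6N ran from -0.14 to 0.14 on the log2 scale. There 0 of the 9 passed by edgeR or DESeq2, 0 had an unadjusted p under 0.05, and 0.366% of all genes were called. P2ry12 had 25.5, 23.3, 24.1 and 26.6 CPM in B6J transgenic, overlapping B6N. Both comparisons use the same B6N libraries.

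**Figure D3:**
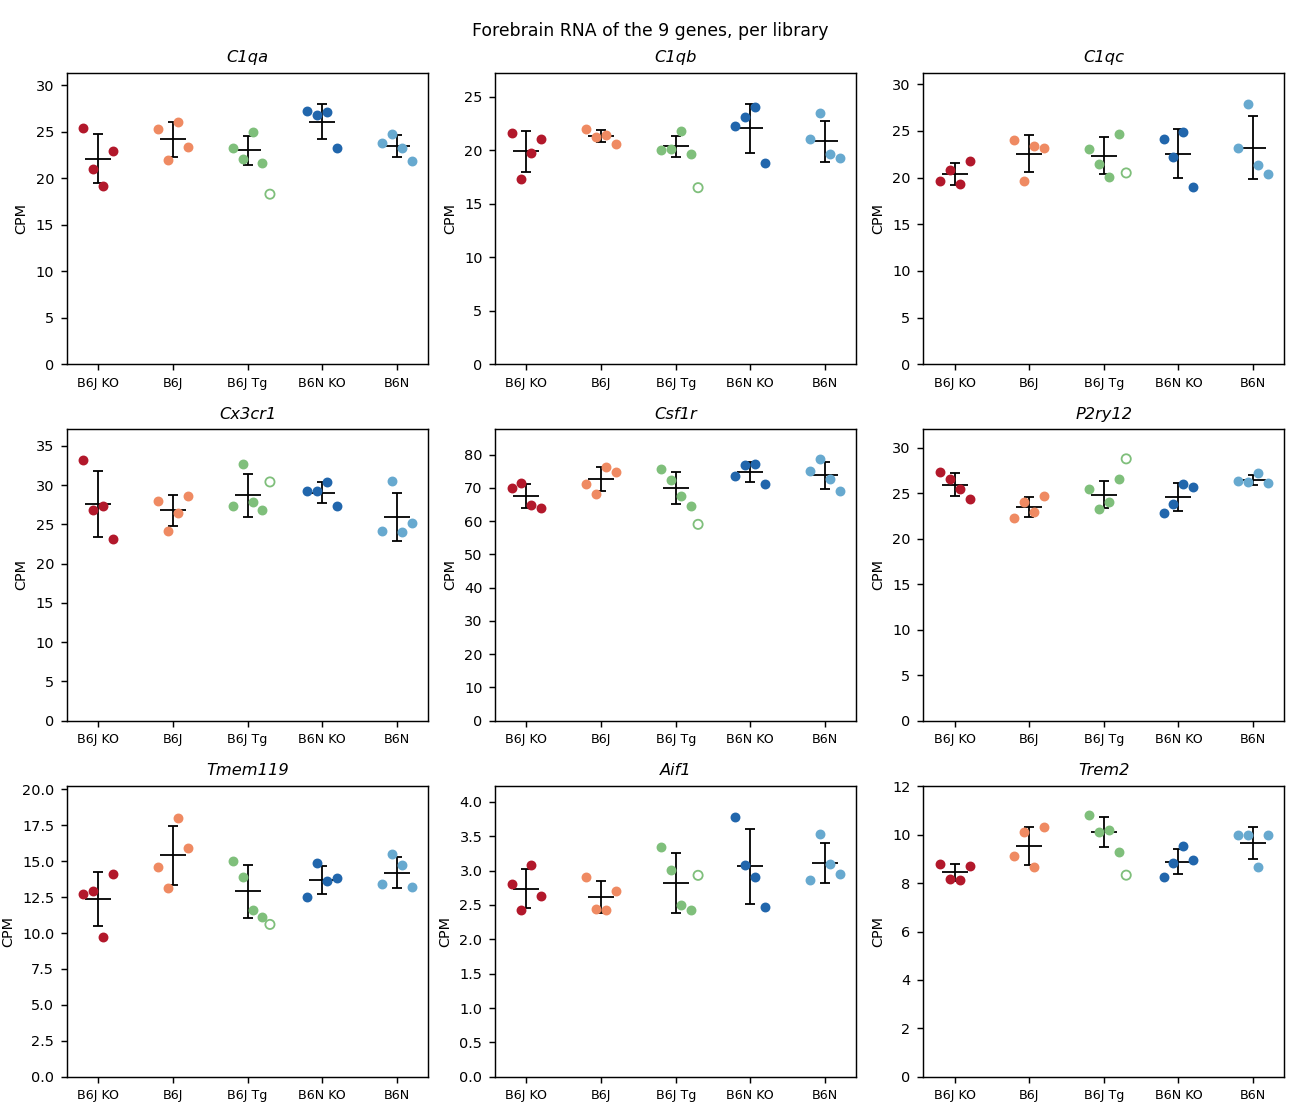
Forebrain RNA levels of the 9 genes in CPM on axes that start at 0, by library (points), with black bars for mean ± SD (n = 4 samples). From left to right stand B6J knockout, B6J, B6J transgenic, B6N knockout and B6N; the open circle is the repeat library of transgenic mouse 4. Across the 21 libraries the highest level of a gene was 1.29 (P2ry12) to 1.85 (Tmem119) times its lowest.

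B6J knockout libraries were made in a second batch, tied to the first by the repeat library of transgenic mouse 4, and the batch was a term of the model. C1qa had 25.4, 21, 19.2 and 22.9 CPM in B6J knockout, 25.3, 22, 26.1 and 23.4 CPM in B6J, and 23.3, 22.1, 25 and 21.6 CPM in the first-batch libraries of B6J transgenic. Cx3cr1 had 33.2, 26.8, 27.3 and 23.1 CPM in B6J knockout, 28.0, 24.2, 26.4 and 28.6 CPM in B6J, and 27.3, 32.7, 27.9 and 26.8 CPM in B6J transgenic. The 3 groups overlapped for both genes. Between its second and first library, transgenic mouse 4 itself had ratios of 0.831 to 1.21 for the 9 genes, with Aif1 at the top and the C1q chains at the bottom.

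Against B6J transgenic, B6J knockout differed by -0.31 to 0.22 on the log2 scale, with 95% intervals between -0.87 and 0.52. Against B6J it differed by -0.24 to 0.15, with intervals between -0.87 and 0.54. In both, 0 of the 9 passed by edgeR, 0 by DESeq2 and 0 at an unadjusted p under 0.05, while 0.738% and 0.106% of all genes were called. The median standard error of the 9 was 0.16 and 0.18, against 0.07 for B6N knockout against B6N, and 1 mouse links the batches. Choroid plexus markers summed to 407 to 575 CPM in B6J knockout, 14.7 to 489 CPM in B6J and 19.7 to 72.5 CPM in B6J transgenic, and their part in these values was not tested. With a term for sex, 0 of the 9 passed, and the differences ran from -0.49 (Cx3cr1) to 0.29 (C1qb) against B6J transgenic and from -0.40 (Cx3cr1) to 0.22 (C1qb and C1qc) against B6J.

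The knockout effect in B6N was also set against the effect of the hypomorph in B6J (B6J against transgenic). None of the 9 differed, and 0.0596% of all genes did. The difference of effects ran from -0.30 ± 0.13 for Tmem119 (edgeR adjusted p = 0.556) to 0.25 ± 0.10 for Cx3cr1 (adjusted p = 0.511), the 2 with an unadjusted p under 0.05, as had 8.19% of all genes. The knockout effect in B6J minus that in B6N ran from -0.39 ± 0.20 for Cx3cr1 (edgeR adjusted p = 0.544) to 0.18. Again 0 of the 9 passed, 0 at an unadjusted p under 0.05, and 0.243% of all genes did. DESeq2 called 0 of the 9 in both.

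**Figure D4:**
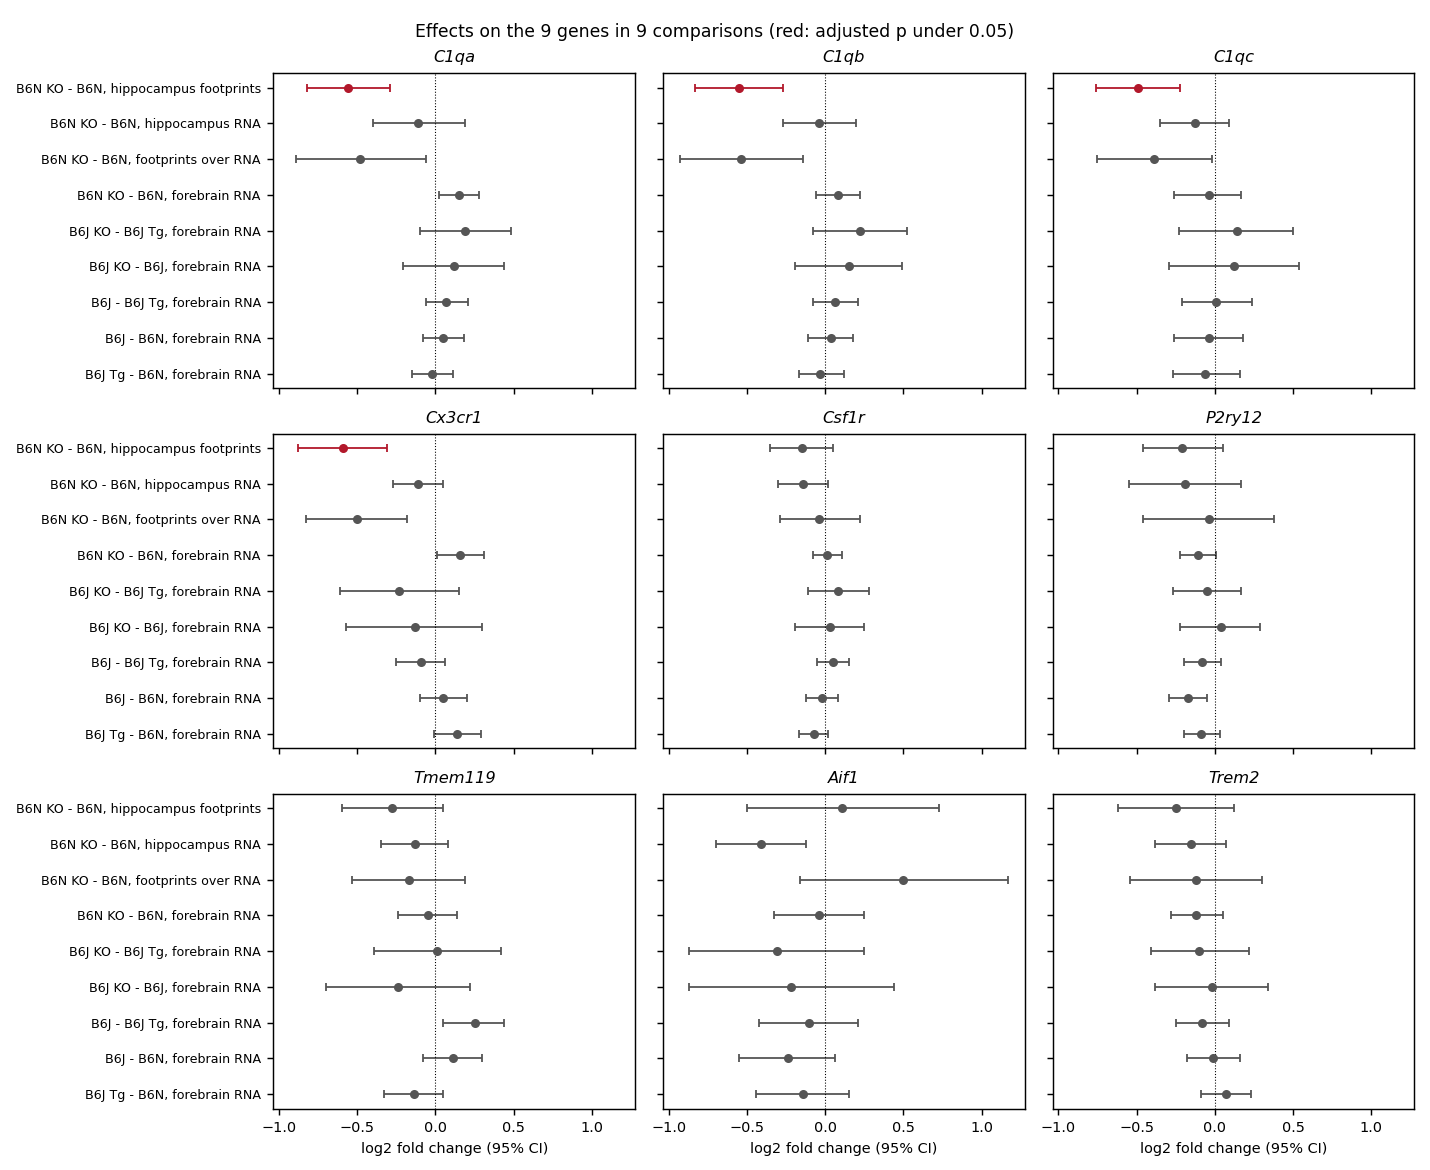
Log2 fold change of the 9 genes in 9 comparisons, with 95% intervals from edgeR; red marks an adjusted p under 0.05. C1qa, C1qb, C1qc and Cx3cr1 in knockout hippocampus footprints are the 4 red points.

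The ligands and partners of the 9 genes were followed too. Il34, a neuronal ligand of Csf1r, had 18.0, 24.1 and 25 CPM in knockout footprints and 25.8, 36.5 and 34.7 CPM in B6N footprints. Every knockout library was lower, and the difference of -0.55 ± 0.17 missed the threshold (edgeR adjusted p = 0.0756). Csf1, the other ligand of Csf1r, differed by 0.06 (adjusted p = 0.859), Cx3cl1, the fractalkine gene, by -0.04 (adjusted p = 0.801), and Tyrobp, which passes on the signal of Trem2, by -0.37 (adjusted p = 0.332). Of the 9 ligands and partners, 1 rose in any comparison. This was Apoe, a lipid carrier that Trem2 binds, by 0.44 ± 0.10 in B6J knockout against B6J transgenic forebrain (edgeR adjusted p = 0.0233). In that comparison 0.738% of all genes were called, 3 of the 4 knockout libraries were female, and 1 mouse links the batches. The part of sex in the Apoe value was not tested.

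Complement beyond C1q was mostly low and none of its cascade genes was called in any comparison, with 14 tested in forebrain and 4 in footprints. At an unadjusted p under 0.05 there were 0 to 4 per comparison. Of the complement receptors and inhibitors, Cd59a, which blocks the membrane attack complex, fell by 0.90 on the log2 scale in B6J against B6N (SE 0.11, edgeR adjusted p = 7.36e-06). It fell by 1.11 in B6J transgenic against B6N (SE 0.11, edgeR adjusted p = 1.79e-07). Srpx2, which binds C1q, fell by 0.85 in B6N knockout against B6N forebrain (SE 0.23, edgeR adjusted p = 0.0459), where the C1q chains themselves were at 0.15, 0.08 and -0.04. Csmd3, a brain membrane protein with complement control domains, rose in knockout footprints by 0.46 ± 0.10 (edgeR adjusted p = 0.0217). Of all genes, 1.73% were called in B6J against B6N and 0.366% in B6J transgenic against B6N. The shares were 1.91% in B6N knockout against B6N forebrain and 5.35% in knockout footprints.

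Within groups, the 9 genes varied together only in part. Over 16 forebrain libraries of the first batch, as deviations from their group means, the 36 pairs had Pearson's r from -0.5 to 0.83 with a median of 0.33, and 27 were positive. Csf1r and Tmem119 had r = 0.83 (permutation p = 0.00162, adjusted over the 36 pairs 0.0292) and Spearman's rho = 0.81 (permutation p = 0.00286, adjusted 0.0515). C1qa and C1qb had r = 0.77 (permutation p = 0.00133, adjusted 0.0292) and rho = 0.80 (permutation p = 0.0014, adjusted 0.0504). Without the 2 libraries farthest from the median of the first gene of the pair (Csf1r or C1qa), r was 0.75 for each pair. These were the 2 pairs that passed, and 0 passed on CPM without TMM scaling, so the calls rest on that scaling.

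**Figure D5:**
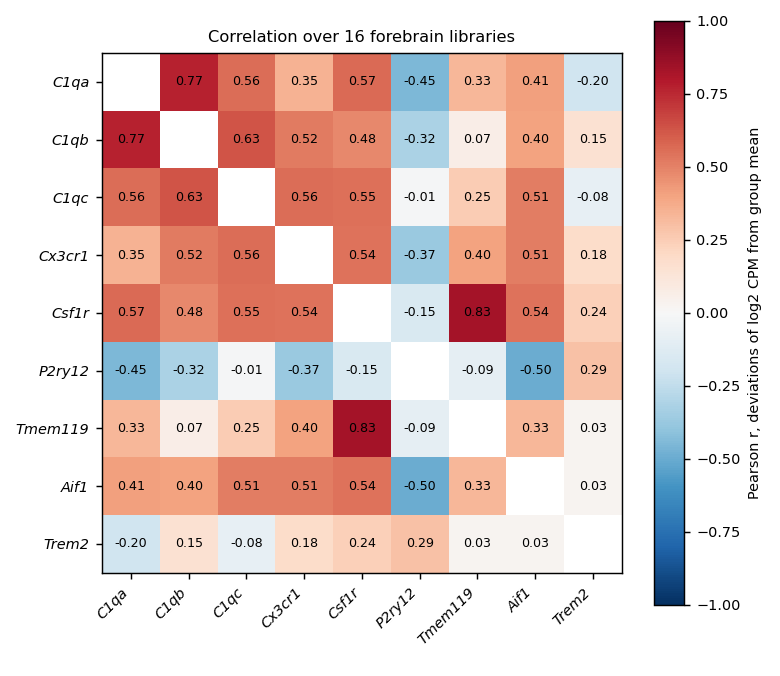
Pearson's r between the 9 genes over 16 first-batch forebrain libraries, as deviations from group means of log2 CPM. Csf1r with Tmem119 (0.83) and C1qa with C1qb (0.77) are the highest of 36 pairs, which reach down to -0.5.

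Over these 16 libraries, 20311 genes, the 9 included, were ranked by how like their forebrain pattern was to the mean of the 3 C1q chains. The most alike outside the 9 were Rab22a (r = 0.92), Ndrg2 (0.92), Tcn2 (0.91), Adamtsl1 (0.91), Ctsd (0.91), Ccdc190 (0.90), Alkbh7 (0.90), Car2 (0.89), Pkp4 (0.89) and Vapb (0.89). Ctsd, a lysosomal protease, was the only one of these 10 on a list, that of activated microglia. Csf1r ranked 822 in this order (r = 0.61), Cx3cr1 1213 (0.56), Aif1 1660 (0.52) and Tmem119 5612 (0.25). Trem2 at -0.05 and P2ry12 at -0.25 were not alike to C1q in pattern. These values share libraries, depth and scaling and are a description only.

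Forebrain estimates per transcript were single for most of the genes. In B6N, C1qa-201 and C1qb-201 carried 100% of the TPM of their genes, C1qc-201 98.4%, Csf1r-201 93.5%, Tmem119-201 92.6% and Cx3cr1-201 85.9%. Most of the rest was in Csf1r-202 (6.48%), Tmem119-202 (7.36%) and Cx3cr1-202 (11.7%). P2ry12 was split over P2ry12-202 (57.7%), P2ry12-205 (28.3%), P2ry12-204 (5.17%) and smaller forms. Trem2 had 61.5% in Trem2-201, 16.8% in Trem2-202 and 19.4% in Trem2-203, an annotated retained intron, so part of its forebrain level is not coding RNA. Aif1 was spread over Aif1-201 at 36.9% ± 28.8 (SD, n = 4), Aif1-205 at 25.2%, also a retained intron, Aif1-203 at 20.4% and Aif1-204 at 11.3%, which few counts per form set poorly.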

How the data were processed

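The 9 genes and the other lists were chosen with earlier results of these data known. Forebrain values were deposited by the authors as estimated counts and TPM per transcript; hippocampus RNA and footprints were deposited as whole counts per gene, not normalized. Levels per length were the deposited TPM in forebrain. In hippocampus RNA they were CPM over the annotated transcript length, weighted by TPM in B6N forebrain. Effective lengths, another deposited column, entered the transcript length offset. Build mm10 and, with no roles given, featureCounts, Bowtie2 2.2.3, HISAT2 2.1.0 and kallisto 0.42.4 come from the submitters' processing notes; the annotation release is not given in the sources used here. Expected counts were summed per gene and rounded. Tests used edgeR 4.0.16 (R 4.3.3): quasi-likelihood, TMM scaling, a minimum count of 10 in filterByExpr, Benjamini-Hochberg over all genes, called under 0.05. Fits held the 16 first-batch forebrain libraries, all 21 with terms for batch and for transgenic mouse 4 (B6J knockout comparisons), 6 hippocampus RNA libraries, 6 footprint libraries, or all 12 hippocampus libraries (footprint-to-RNA ratio). Scripts were tested on simulated data. DESeq2 1.42.0, other scalings, filters and each library left out were tried. Samples were taken as separate mice by their numbers alone, so p-values measure the spread between these samples. Correlations used 100000 permutations of log2(CPM + 0.5). All 9 genes are named, and genes of the lists where called (at most 5 a list) or as a ligand or partner; the 10 genes most like C1q need a mean of 1 CPM. n-Tr20, a tRNA, is not counted by these libraries, so knockout labels had no direct check.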

Additional observations from a re-analysis of the deposited data

Results flagged for a closer look

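In each group of 4 libraries, a single value that stood far from its neighbours was looked for in the forebrain levels of the 9 genes, and 2 of 45 gene and group combinations held one. Chance alone gives about 1 in 20. C1qa was at 23.3 CPM in B6N knockout forebrain library 4, against 26.8 to 27.2 CPM in the other 3, a gap of 0.908 of the whole range. Trem2 was at 8.66 CPM in B6N forebrain library 3, against 9.97 to 10 CPM in the other 3, a gap of 0.942 of the range.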

How the results depend on the processing

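Over 11 comparisons, 161 of 167 alternative settings gave the same count of called genes among the 9, and 6 gave another. In knockout hippocampus footprints the count was 4 under upper-quartile scaling, DESeq2, no filter on low counts and a replicate block, and 0 to 4 with 1 library left out. For the footprint-to-RNA change it was 0 to 1 with 1 library left out, and for pairs of genes that vary together it was 0 with unscaled CPM. Of 1503 values of single genes, 1485 kept their side of the threshold, 17 lost a call, all of them footprints with 1 library left out, and 1 gained one. No called value changed sign, and 91 uncalled ones did. The lowest adjusted p of any of the 9 in forebrain under an alternative was 0.057.

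Within an assay, numbers shared between groups did not pair samples: 30 same-numbered pairs had correlations of -0.28 to 0.10. Between hippocampus RNA and footprints of 1 genotype, the 6 same-numbered pairs had -0.11 to 0.13. The replicate block changed no call of the 9 genes, with 4 called in footprints and 0 elsewhere. A replicate block that ties RNA and footprints of 1 number, chosen after seeing the data, called 0 of the 9 and 7 of all genes for the ratio. It takes equal numbers as the same mouse, which the sex genes do not bear out for knockout 1.

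Counts over all genes moved more. With 1 library left out they ran from 32 to 916 in footprints, against 708 with all, from 262 to 751 in B6N knockout against B6N forebrain (481) and from 134 to 1813 in B6J knockout against B6J transgenic (188). DESeq2 called 1080 in footprints, 138 in hippocampus RNA (8 by edgeR), 494 for the ratio (0), 157 in B6J against transgenic (63), 458 in B6J knockout against transgenic (188), 131 in B6J knockout against B6J (27), 50 for the knockout effect against the hypomorph effect (15) and 252 for the knockout effect between strains (62). With no filter on low counts these were 135 in hippocampus RNA, 38 for the ratio, 106 in B6J against transgenic and 46 for the knockout against the hypomorph effect. A transcript length offset lowered every forebrain count, to 174 in B6N knockout against B6N, 143 in B6J against B6N (434), 67 in B6J knockout against transgenic, 55 in transgenic against B6N (92), 12 in B6J knockout against B6J, 7 and 6 for the differences of effects and 6 in B6J against transgenic. The B6J knockout counts were 1994 against transgenic and 1983 against B6J without a batch term, 742 against transgenic in the second batch alone, and 63 and 3 with a term for sex, chosen after seeing the data, which gave 17 for the knockout effect between strains. B6J and B6N fitted alone gave 990, and the replicate block gave 4 for the ratio. Leaving out the repeat library of transgenic mouse 4 was not run where B6J knockout was set against transgenic or its effect against that in B6N, since batch and knockout then cannot be told apart. Aif1, with 29 to 114 footprints a library, and the B6J knockout values are the least precise.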
